A study of Mus musculus with 14 samples.

Results

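The complement system was examined through 29 genes for its components, regulators and receptors, taken by symbol from a table of 49315 genes measured in mouse heart. The tested hearts came from male wild-type C57BL/6 mice of 68 weeks, set against male wild-type C57BL/6 mice of 12 weeks, both on standard chow, and 4 libraries of heart RNA were sequenced at each age. The series also holds lists of regions marked by H3K27me3, a Polycomb mark associated with silencing, from CUT&RUN on powdered heart of the same ages. The series title names glutamine supplementation, but no supplemented group was among the samples used here, and the comparison is of age alone. The 29 symbols stood on 30 gene identifiers, since a second identifier also carried the symbol Itgam. The genes were grouped as 8 of the classical arm, 1 of the lectin arm (Masp1), 3 of the alternative arm, 2 of the terminal arm, 9 regulators and 6 receptors.

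Complement is a cascade of proteases and opsonins that tags particles and dying cells. In the classical arm C1q recognises its target, the proteases C1r and C1s bound to it are activated, and C1s cleaves C4 and C2 to build the enzyme that splits C3. The alternative arm amplifies C3 cleavage, the terminal components form a membrane pore, and regulators on cells and in plasma limit each step. The liver supplies most circulating complement, while in tissues macrophages are known as the main source of C1q and mesenchymal cells as a source of C1r, C1s and C4.

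The libraries held 28842059 to 34599121 counts at 68 weeks and 23599296 to 31662601 at 12 weeks. Cardiomyocyte markers were abundant, with 8 genes summing to 52700 to 58200 CPM (counts scaled to the normalised library size) at 68 weeks and to 45800 to 52800 CPM at 12 weeks. Hepatocyte markers were near the limit of detection, since 7 genes summed to 0.43 to 0.793 CPM at 68 weeks and to 0.501 to 1.08 CPM at 12 weeks, and 2 of them had no count in any library. Airway epithelial transcripts set 4 libraries apart. The 20 airway markers had a joint level of 1280 CPM in 68-week replicate 3, where the remaining 68-week libraries held 19.5 to 30.9 CPM. At 12 weeks the joint level was 1850, 1040 and 638 CPM in replicates 1 to 3 and 64.8 CPM in replicate 4. High airway content was thus found in 1 of 4 libraries at 68 weeks and in 3 of 4 at 12 weeks, and results are also given within the 4 libraries of least and the 4 of most airway transcripts. In whole-heart RNA, fewer cells of a type and less RNA per cell cannot be told apart.

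The level of complement transcripts per gene length ranged over more than 3 orders of magnitude within the heart. RPKM values (the same scaled counts divided by the deposited gene lengths) were highest for Clu, which encodes the secreted chaperone and terminal-pathway inhibitor clusterin, at 258 ± 23.3 RPKM at 68 weeks and 256 ± 46.7 RPKM at 12 weeks (SD, n = 4 each). C3, the central component, was next at 75.3 ± 8.55 RPKM at 68 weeks and 66.9 ± 5.41 RPKM at 12 weeks. C1qbp, C1qa, Serping1 and C1qb followed with means of 34.4 to 39.2 RPKM at 68 weeks and 33.5 to 38.9 RPKM at 12 weeks, and neighbours in this group did not differ beyond their spread. Cd59a, C1qc, C4b and C1s1 stood between 11.6 and 30.0 RPKM at 68 weeks and between 8.65 and 25.9 RPKM at 12 weeks. The order was almost the same at both ages, and the same 8 genes led in each.

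**Figure D1:**
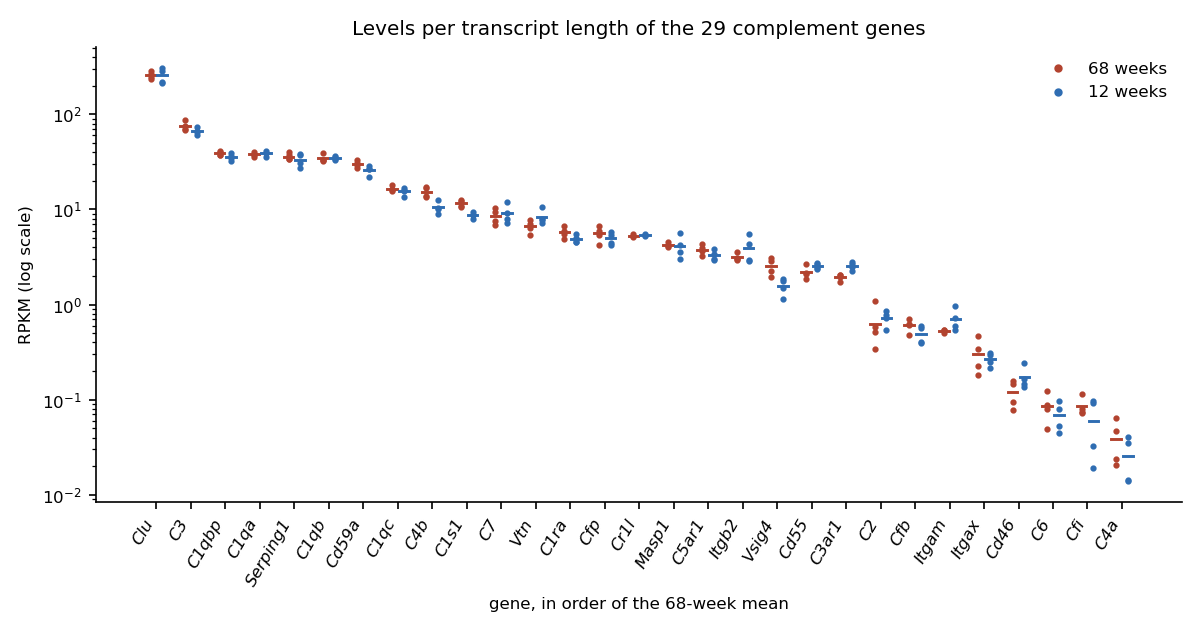
Level per gene length (RPKM, log axis) of the 29 complement genes in the 68-week (red) and 12-week (blue) hearts; each point is a library and each bar the mean of 4. Clu and C3 lead at both ages, and Cd46, C6, Cfi and C4a stand at the bottom, under 0.2 RPKM.

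At the bottom of the range, Cd46, C6, Cfi and C4a averaged under 0.2 RPKM at either age. Cfi, the plasma protease that inactivates C3b and C4b, had 5 to 7 counts per library at 68 weeks and 1 to 7 at 12 weeks. C4a, the near-identical neighbour of C4b that RefSeq lists as a transcribed pseudogene, had 4 to 12 counts at 68 weeks and 2 to 7 at 12 weeks. Neither passed the filter on low counts, so 27 of the 29 genes were tested, and the second Itgam identifier was also not tested.

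Of these 27 genes, 2 rose at 68 weeks and 0 fell by edgeR's quasi-likelihood test at an adjusted p of 0.05, and both were of the classical arm. They were C1s1, the protease of the C1 complex, and C4b, its substrate. The share of members called higher was 7.41%, beside 1.61% of all 15947 genes tested, and the share called lower was 0%, beside 1.22%, so that 2.83% of all genes were called in either direction. With library size alone in place of the TMM factors, 176 genes of all were called higher and 248 lower, against 256 and 195, and neither C1s1 nor C4b was called. By edgeR, 8 of the 27 had an unadjusted p under 0.05, namely C1s1, C4b, C1ra, Vsig4 and Cd59a above 0 and C3ar1, Vtn and Itgam below 0. These 5 and 3 genes compare with 9.26% and 9.77% of all genes. The median log2 fold change of the 27 was 0.09, against -0.0082 over all genes tested, and 16 of the 27 lay above 0, where 47.9% of all genes did. Libraries of the 2 ages did not overlap for C1s1, C4b and Vsig4, higher at 68 weeks (3 members or 11.1%, beside 6.26% of all genes), and for C3ar1 and, narrowly, Itgam, lower at 68 weeks (2 or 7.41%, beside 5.86%).

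**Figure D2:**
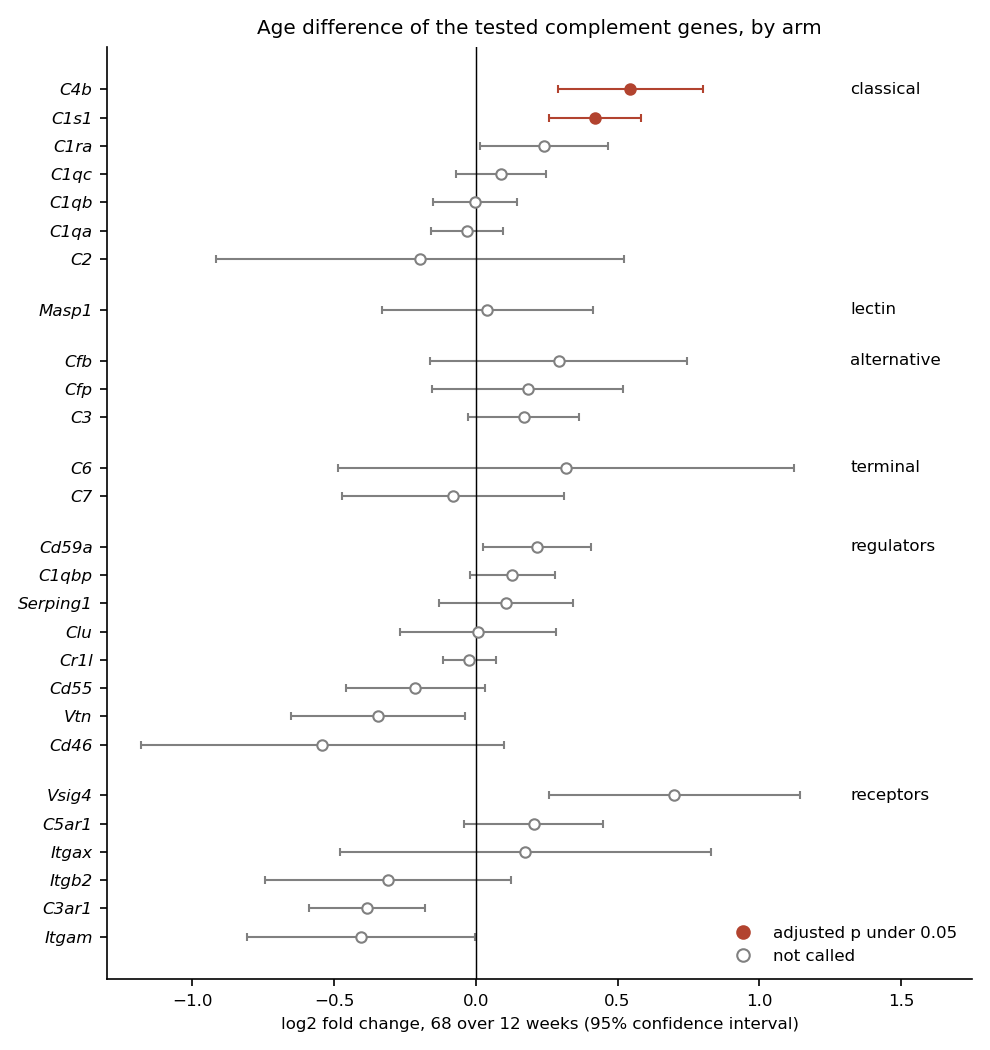
Log2 fold change (68 over 12 weeks) with its 95% confidence interval for the 27 tested complement genes, grouped by arm; filled red points passed an adjusted p of 0.05 in edgeR. C4b (0.54) and C1s1 (0.42) passed, while the C1q chains lie close to 0.

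C1s1 (chromosome 6, 124530345 to 124542359, minus strand, mm10 by label) was measured at 38.4, 33.9, 39.6 and 33.1 CPM in 68-week replicates 1 to 4, against 27.3, 24.8, 27 and 29.1 CPM in 12-week replicates 1 to 4. Every 68-week library was above every 12-week one. The means were 36.3 ± 3.25 CPM at 68 weeks and 27.1 ± 1.74 CPM at 12 weeks (SD, n = 4 each), a 1.34-fold difference, or 0.42 ± 0.073 on the log2 scale (SE, adjusted p = 0.0201, edgeR). The call was lost without 68-week replicate 1 (0.39, adjusted p = 0.0525, edgeR) and without 12-week replicate 1, 2 or 3 (0.43, 0.38 and 0.42, with adjusted p = 0.0545, 0.0524 and 0.0544). It was also lost with the airway markers in the model, where the log2 fold change was 0.45 ± 0.088 (adjusted p = 0.064, edgeR). Within the 4 libraries of least airway transcripts, 3 at 68 weeks against 1 at 12 weeks, the log2 fold change was 0.27 ± 0.11. Within the 4 of most, 1 against 3, it was 0.59 ± 0.098, and neither value was called.

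C4b (chromosome 17, 34728380 to 34743882, minus strand) was measured at 98.4, 78.2, 95.1 and 77.1 CPM in 68-week replicates 1 to 4, against 57.6, 51.3, 71.8 and 58.5 CPM in 12-week replicates 1 to 4. The ages again did not overlap, and 12-week replicate 3 lay nearest to the 68-week range. Means of 87.2 ± 11.1 CPM at 68 weeks and 59.8 ± 8.62 CPM at 12 weeks (SD, n = 4 each) gave a 1.46-fold difference, or 0.54 ± 0.11 on the log2 scale (adjusted p = 0.0413, edgeR). This call lay near the threshold and stood when 12-week replicate 3 was left out (0.64, adjusted p = 0.0303, edgeR). It was lost without 68-week replicate 1, 2, 3 or 4 (0.48, 0.59, 0.50 and 0.60, with adjusted p = 0.0848, 0.0581, 0.0724 and 0.0612) and without 12-week replicate 1, 2 or 4 (0.53, 0.48 and 0.53, with adjusted p = 0.0935, 0.0926 and 0.0745). With airway markers in the model the log2 fold change was 0.60 ± 0.14 (adjusted p = 0.103, edgeR). It was 0.53 ± 0.16 within the 4 libraries of least airway transcripts and 0.66 ± 0.17 within the 4 of most. Of the reads assigned to either C4 copy, 99.7% were assigned to C4b, and how reads shared between the copies were counted is not given in the sources used here.

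C1ra, the C1r protease gene that neighbours C1s1 on chromosome 6, had 20, 16.6, 17.8 and 14.8 CPM in 68-week replicates 1 to 4, against 13.6, 13.6, 14.9 and 16.4 CPM in the 12-week replicates. The ages overlapped, and the log2 fold change of 0.24 ± 0.10 was not called (adjusted p = 0.238, edgeR). The related genes C1rb and C1s2 had 4 and 8 counts over all 8 libraries, against 3756 for C1ra and 7495 for C1s1. On the opposite strand, Gm16567 covers 18.4% of the C1s1 exon bases and had no count in any library. With the strand setting not given, the level of C1s1, and with it any ratio to another gene, is uncertain.

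**Figure D3:**
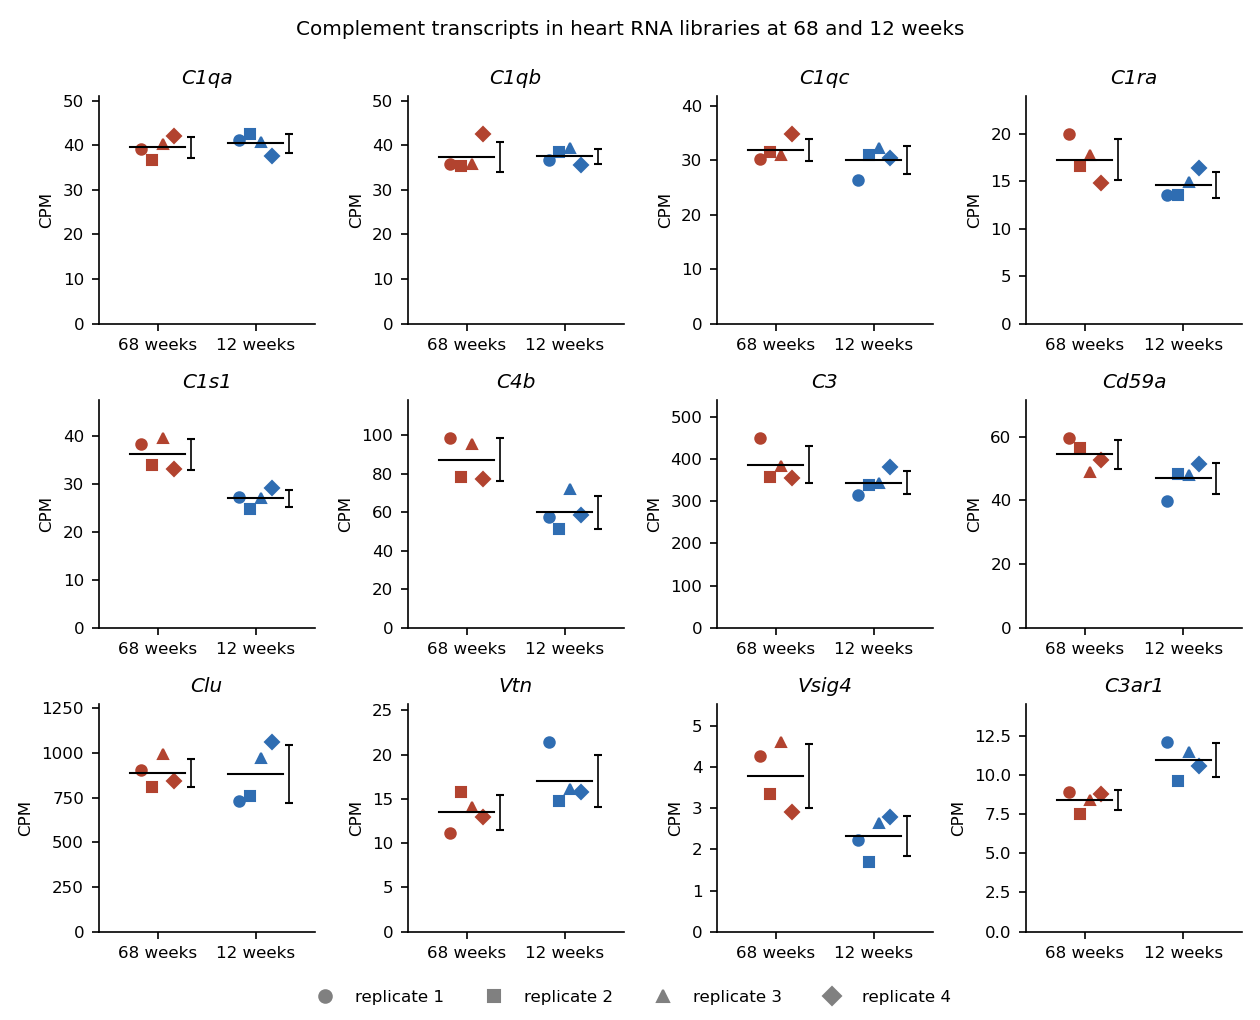
CPM by library of 12 complement genes in the 68-week (red, left) and 12-week (blue, right) hearts; symbols mark the replicate, the horizontal bar is the mean and the bracket ± 1 SD (n = 4). C1s1, C4b and Vsig4 are higher in every 68-week library and C3ar1 is lower in every 68-week library, while the C1q chains share one range.

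None of the C1q chains was called. C1qa had 39.2, 36.6, 40.2 and 42.1 CPM at 68 weeks, against 41.1, 42.5, 40.7 and 37.5 CPM at 12 weeks. C1qb had 35.8, 35.4, 35.9 and 42.5 CPM at 68 weeks, against 36.8, 38.5, 39.3 and 35.5 CPM at 12 weeks. C1qc had 30.3, 31.5, 31.0 and 34.8 CPM at 68 weeks, against 26.3, 31.0, 32.2 and 30.5 CPM at 12 weeks. The ranges of the ages overlapped for each chain. Log2 fold changes were -0.032 ± 0.057 for C1qa, -0.0025 ± 0.067 for C1qb and 0.09 ± 0.071 for C1qc, with adjusted p = 0.799, 0.99 and 0.528 (edgeR). The 95% confidence intervals covered fold changes of 0.896 to 1.07 for C1qa, 0.9 to 1.11 for C1qb and 0.954 to 1.19 for C1qc.

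Set against C1qa in the same library and per gene length, C1s1 stood at 0.326, 0.308, 0.328 and 0.261 in the 68-week replicates, against 0.221, 0.194, 0.221 and 0.258 in the 12-week replicates. Among the C1q chains the ages overlapped, with C1qb at 0.853 to 0.965 of C1qa at 68 weeks and at 0.855 to 0.923 at 12 weeks. C1qc was at 0.415 to 0.463 of C1qa at 68 weeks and at 0.345 to 0.438 at 12 weeks. C1s1 against C1ra gave 1.83 to 2.13 at 68 weeks and 1.69 to 1.91 at 12 weeks, so that these ranges overlapped. The ratios were chosen after the values were seen and carry no test.

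Of 14 macrophage markers, 1 was called lower and 0 higher, and their sum was 309 to 388 CPM at 68 weeks and 330 to 395 CPM at 12 weeks. The one called was Cx3cr1, the fractalkine receptor. Csf1r (-0.17 ± 0.056, not called) was also lower in every 68-week library. The median log2 fold change of the 14 was -0.13, with Lyve1, Mertk, Cd68, Cd163 and Folr2 above 0 and the rest below. Lyz2 alone held 110 to 174 CPM of the sum at 68 weeks and 124 to 188 CPM at 12 weeks. Of 8 fibroblast markers, 1 was called lower, the collagen gene Col1a1, and their sum was 916 to 1160 CPM at 68 weeks and 1230 to 1370 CPM at 12 weeks. Of 8 adipocyte markers, 3 were called lower, with a sum of 541 to 803 CPM at 68 weeks and 855 to 1150 CPM at 12 weeks. Both sums lay lower in every 68-week library. In the adipocyte sum, Fabp4, also listed as an endothelial marker, averaged 307 CPM at 68 weeks and 465 CPM at 12 weeks. Plin4 averaged 285 CPM at 68 weeks and 289 CPM at 12 weeks. Of all genes tested, 1.61% were called higher and 1.22% lower. Among the fibroblast markers, the collagens Col1a1 (-0.73 ± 0.16) and Col3a1 (-0.64 ± 0.15, not called) were lower in every 68-week library. So was Pdgfra, at 49 to 59.8 CPM at 68 weeks against 63.9 to 69 CPM at 12 weeks. The 6 fibroblast markers other than the collagens were a subset chosen after the values were seen. They summed to 624 to 704 CPM at 68 weeks and to 602 to 708 CPM at 12 weeks, so that the ages overlapped. Dcn alone held 383 to 419 CPM of this sum at 68 weeks and 343 to 427 CPM at 12 weeks. Of these 6, the matrix genes Lum (0.33 ± 0.12), Dpt (0.13 ± 0.071) and Dcn (0.07 ± 0.068) lay above 0. Pdgfra (-0.25 ± 0.068), Ddr2 (-0.15 ± 0.073) and Tcf21 (-0.046 ± 0.13) lay below 0, and none of the 6 was called. The part of these cell types in the complement values was not tested.

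The C1s1 sequence before the transcription start is shown because its transcript differed between the ages, and those of C1qb and C1qc because theirs, in the same protein complex, were not called. Each is the 250 bases before the RefSeq start (GRCm38.p6), 5′ to 3′ on the gene's strand, at chr6:124542360-124542609, minus strand, chr4:136886201-136886450, minus strand and chr4:136892915-136893164, minus strand. Capitals mark matches, on either strand, to GAGGAA (a PU.1 core), TTGCNNAA (C/EBP), GGGA, any 4 bases and CC (NF-kB), GAAA, any 2 bases and GAAA (ISRE core) or TTCNNNGAA (GAS), with overlapping matches merged.
C1s1: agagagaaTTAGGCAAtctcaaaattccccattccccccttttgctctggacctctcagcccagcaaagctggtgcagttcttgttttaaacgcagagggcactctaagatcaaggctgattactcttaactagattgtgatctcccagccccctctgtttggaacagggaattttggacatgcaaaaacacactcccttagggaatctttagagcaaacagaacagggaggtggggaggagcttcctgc
C1qb: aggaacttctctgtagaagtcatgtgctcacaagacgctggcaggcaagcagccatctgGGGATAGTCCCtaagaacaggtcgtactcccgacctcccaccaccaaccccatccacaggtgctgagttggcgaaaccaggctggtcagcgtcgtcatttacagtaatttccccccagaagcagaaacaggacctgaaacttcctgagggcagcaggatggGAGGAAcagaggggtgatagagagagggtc
C1qc: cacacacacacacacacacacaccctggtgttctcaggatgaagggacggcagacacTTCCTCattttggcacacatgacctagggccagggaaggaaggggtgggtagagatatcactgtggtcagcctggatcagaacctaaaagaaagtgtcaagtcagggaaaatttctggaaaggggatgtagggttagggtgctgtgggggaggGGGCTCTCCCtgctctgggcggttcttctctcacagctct
C1s1 held the C/EBP letters as TTAGGCAA, starting 242 bases before the start, and no other match. C1qb held GAGGAA 30 bases before the start, and C1qc held it on the other strand 193 bases before. Both C1q windows also matched the NF-kB letters. The RefSeq start of C1qc lies 151 bases inside the span of the gene in the count tables. Its NF-kB match, 40 bases before that start, thus falls within the counted gene's span. Of 27025 promoters, 23.1% held GAGGAA, 9.55% the C/EBP letters and 17.3% the NF-kB letters, beside 26.3%, 10.5% and 26.3% of the 19 complement genes with an entry in the table. A match is a description of letters, and none was tied to a factor or to age.

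In the classical arm's remaining member and in the alternative and lectin arms, no gene was called. C2, which supplies the protease part of the classical C3 convertase, had 4.27, 2.23, 2.00 and 1.31 CPM at 68 weeks, against 2.98, 3.34, 2.80 and 2.09 CPM at 12 weeks. Its log2 fold change was -0.20 ± 0.32, and without 68-week replicate 1, its highest library, -0.61. Cfb, the factor B gene, had 1.76, 1.73, 2.00 and 1.34 CPM at 68 weeks, against 1.62, 1.15, 1.68 and 1.12 CPM at 12 weeks (0.29 ± 0.20). The read-through gene model Gm20547 shares 79.5% of the exon bases of Cfb and 42.8% of those of C2 on the same strand and had no count in any library, so that the level of both genes is uncertain.

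C3 had 450, 358, 384 and 356 CPM at 68 weeks, against 315, 338, 343 and 382 CPM at 12 weeks. The highest 68-week and the lowest 12-week library, both replicate 1, stood apart, and the other libraries shared one range. The log2 fold change of 0.17 ± 0.087 was not called (adjusted p = 0.33, edgeR), and its interval allowed folds of 0.982 to 1.29. It was 0.025 within the 4 libraries of least airway transcripts and 0.21 within the 4 of most. Cfp, which encodes properdin, the stabiliser of the alternative convertase, had a log2 fold change of 0.18 ± 0.15. Masp1, a protease gene of the lectin arm, ranged from 11.1 to 12.5 CPM at 68 weeks and from 8.34 to 15.6 CPM at 12 weeks, and its 0.04 ± 0.17 turned to -0.42 within the 4 libraries of least airway transcripts, none of these values being called.

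The C3 window is shown because C3 was the most abundant cascade component and its gene was also linked to an H3K27me3 region. It lies at chr17:57228137-57228386, minus strand, with capitals as above.
C3: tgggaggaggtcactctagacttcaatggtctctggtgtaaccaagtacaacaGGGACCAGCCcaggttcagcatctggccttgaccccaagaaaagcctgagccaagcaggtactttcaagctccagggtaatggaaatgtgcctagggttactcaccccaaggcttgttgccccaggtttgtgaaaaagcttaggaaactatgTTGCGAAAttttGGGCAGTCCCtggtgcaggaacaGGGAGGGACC
It held the C/EBP letters as TTGCGAAA, 45 bases before the start, and the NF-kB letters at 10, 33 and 197 bases before it.

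In the terminal arm, C7 was measured at 20.5, 18.6, 25.7 and 28.1 CPM at 68 weeks, against 19.6, 21.4, 32.8 and 24.7 CPM at 12 weeks. C6 was at 0.199 to 0.505 CPM at 68 weeks and 0.181 to 0.387 CPM at 12 weeks. Both encode components of the membrane pore. The ages overlapped for both genes, with log2 fold changes of -0.08 ± 0.18 for C7 and 0.32 ± 0.36 for C6. The interval of C6 spanned folds of 0.713 to 2.17, so that a difference within it was not detectable at 5 to 14 counts per library. Of the other pore genes, C8g, the third C8 chain, had 68 to 96 counts per library at 68 weeks and 46 to 76 at 12 weeks, and its log2 fold change of 0.19 ± 0.19 was not called. C8a and C8b had no count in any library, C9 had 0 or 1 count per library, and Hc, the mouse C5 gene, had 0 to 4 counts at 68 weeks and 0 to 5 at 12 weeks. Per gene length, C7 stood at 8.57 ± 1.64 RPKM at 68 weeks and 9.1 ± 2.16 RPKM at 12 weeks, and C8g at 1.71 ± 0.409 RPKM at 68 weeks and 1.5 ± 0.231 RPKM at 12 weeks (SD, n = 4 each).

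Among the regulators, 0 of the 8 tested were called in either direction by edgeR, where 1.61% and 1.22% of all genes were called, and 1 in each direction had an unadjusted p under 0.05. DESeq2 also called 0 of them. Cd59a, which encodes a membrane inhibitor of the pore, had 59.5, 56.3, 49.0 and 52.7 CPM at 68 weeks, against 39.9, 48.1, 48.0 and 51.4 CPM at 12 weeks. Its log2 fold change was 0.22 ± 0.085 (adjusted p = 0.214, edgeR), or 0.089 with airway markers in the model. Vtn, which encodes vitronectin, a fluid-phase inhibitor of pore assembly, had 11.1, 15.8, 14.1 and 12.9 CPM at 68 weeks, against 21.4, 14.8, 16.1 and 15.8 CPM at 12 weeks. The highest value was that of 12-week replicate 1, the library with the most airway transcripts, and the log2 fold change was -0.34 ± 0.14 (adjusted p = 0.214, edgeR).

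Clu and Serping1 varied more between libraries of an age than between ages. Clu ranged from 808 to 991 CPM at 68 weeks and from 733 to 1060 CPM at 12 weeks, and its log2 fold change was 0.0075 ± 0.12. Serping1, which encodes the C1 inhibitor that blocks C1r and C1s, ranged from 78.1 to 92.3 CPM at 68 weeks and from 64.0 to 89.0 CPM at 12 weeks (0.11 ± 0.11). In 12-week replicates 1 to 4, whose airway sums fell in that order, Clu had 733, 761, 972 and 1060 CPM, Serping1 64.0, 71.9, 86.5 and 89.0 CPM and Masp1 8.34, 9.80, 11.6 and 15.6 CPM. At 68 weeks the order was not the same, since replicate 3, the 1 library of that age with high airway content, had the highest Clu (991 CPM) and Serping1 (92.3 CPM) of its age. The part of airway transcripts in this was not tested.

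The steadiest member was Cr1l, which encodes Crry, a mouse membrane regulator of C3 convertases. It ranged from 52.9 to 57.2 CPM at 68 weeks and from 54.5 to 57.2 CPM at 12 weeks, and its log2 fold change of -0.022 ± 0.042 had an interval covering folds of 0.923 to 1.05. C1qbp, whose product binds C1q heads and resides mainly in mitochondria, averaged 111 ± 5.32 CPM at 68 weeks and 101 ± 8.66 CPM at 12 weeks (SD, n = 4 each), with overlapping libraries and a log2 difference of 0.13 ± 0.067, and the decay-accelerating factor gene Cd55 had -0.21 ± 0.11. Cd46, expressed mainly in testis in mice, was at 0.595 to 1.19 CPM at 68 weeks and 1.04 to 1.86 CPM at 12 weeks (-0.54 ± 0.29). None of these 4 was called. On the opposite strand, A330023F24Rik, Mir29b-2 and Mir29c cover 14.2% of the Cd46 exon bases. A330023F24Rik had 1562 counts over all 8 libraries, against 263 for Cd46. Since the strand setting is not given, the level of Cd46 is uncertain.

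Among the 6 receptor genes, 0 were called in either direction by edgeR, where 1.61% of all genes were called higher and 1.22% lower, and 1 above 0 and 2 below 0 had an unadjusted p under 0.05. DESeq2, which called 3.46% of all genes higher and 2.67% lower, called 1 in each direction. Vsig4, the C3b receptor CRIg of tissue macrophages, had 4.27, 3.35, 4.61 and 2.92 CPM at 68 weeks, against 2.24, 1.69, 2.63 and 2.78 CPM at 12 weeks. The ages did not overlap, with 68-week replicate 4 and 12-week replicate 4 nearly level. This was the highest log2 fold change of the members, at 0.70 ± 0.20, and it was not called by edgeR (adjusted p = 0.0962) but was by DESeq2 (0.71, adjusted p = 0.027). It was 0.34 ± 0.27 within the 4 libraries of least airway transcripts and 1.08 ± 0.27 within the 4 of most.

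C3ar1, the receptor for the anaphylatoxin C3a, lay on the other side, with 8.91, 7.50, 8.41 and 8.78 CPM at 68 weeks, against 12.1, 9.59, 11.5 and 10.6 CPM at 12 weeks. Every 68-week library was below every 12-week one. The log2 fold change was -0.38 ± 0.091, with adjusted p = 0.0602 by edgeR and 0.0227 by DESeq2 (-0.37). It was -0.33 ± 0.15 and -0.40 ± 0.17 within the libraries of least and of most airway transcripts. Per gene length, Vsig4 stood at 0.964 to 1.59 of C3ar1 at 68 weeks and at 0.511 to 0.762 at 12 weeks, a ratio chosen after the values were seen and not tested. C5ar1, the C5a receptor gene, had 9.73 ± 1.08 CPM at 68 weeks and 8.48 ± 1.05 CPM at 12 weeks (SD, n = 4 each), and its 0.20 ± 0.11 was not called.

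**Figure D4:**
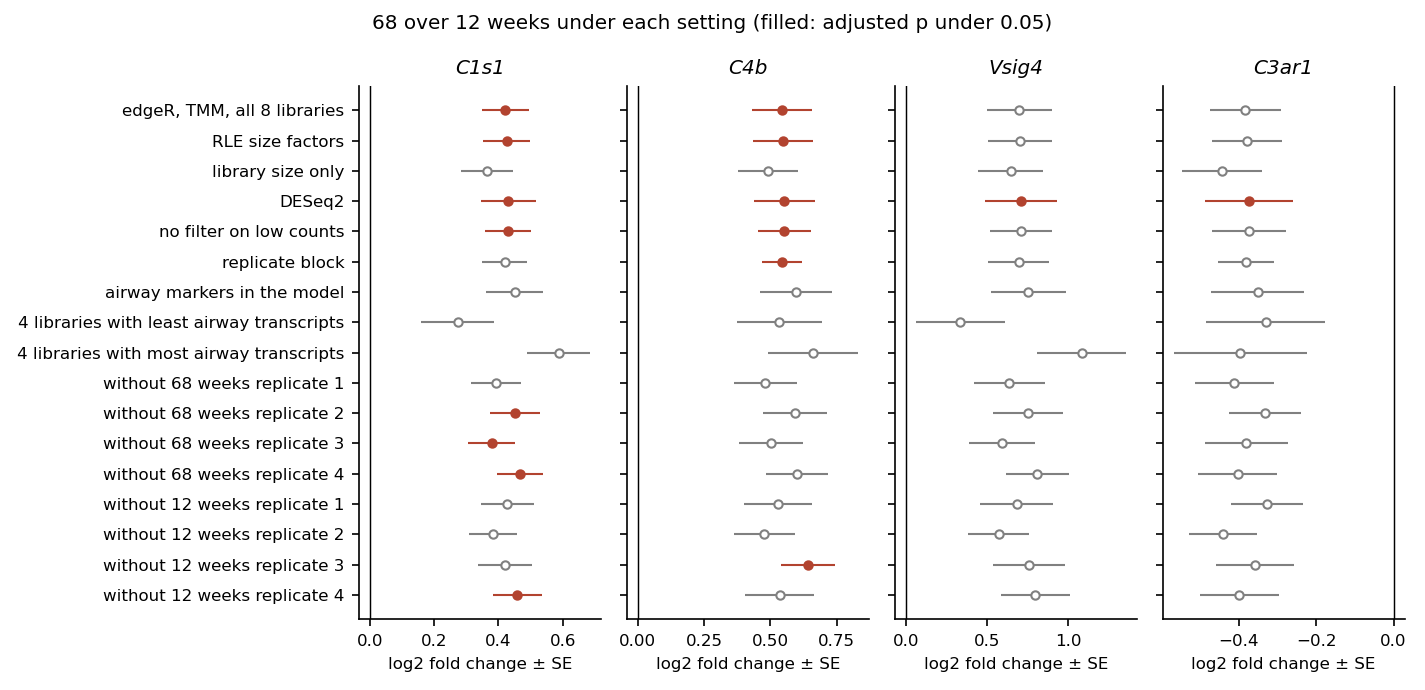
Log2 fold change ± SE (68 over 12 weeks) of C1s1, C4b, Vsig4 and C3ar1 under each setting and with each library left out; filled red points passed an adjusted p of 0.05. All values keep their sign, and the calls of C1s1 and C4b are lost in 4 and 7 of the 8 settings that leave out a library.

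The Vsig4 window is shown beside those of C1qb and C1qc because all 3 genes are known from macrophages. It lies at chrX:96293439-96293688, minus strand, with capitals as above.
Vsig4: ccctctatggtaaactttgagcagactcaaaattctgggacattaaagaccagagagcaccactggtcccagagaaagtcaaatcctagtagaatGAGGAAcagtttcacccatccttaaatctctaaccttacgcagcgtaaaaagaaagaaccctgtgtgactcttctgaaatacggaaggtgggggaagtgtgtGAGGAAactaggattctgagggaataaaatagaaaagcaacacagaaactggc
It held GAGGAA at 53 and 155 bases before the start. Of the other receptor genes with an entry, Itgam also held these letters, while C3ar1, C5ar1 and Itgax did not. The regulator gene Cd59a held them as well, so that 5 of the 19 complement genes did.

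The integrin genes of complement receptors 3 and 4, which bind iC3b on leukocytes, were Itgam, Itgax and their shared partner Itgb2. Itgb2 had 9.4, 10.8, 9.15 and 9.04 CPM at 68 weeks, against 8.81, 13.1, 16.8 and 9.03 CPM at 12 weeks. Itgam had 2.52, 2.63, 2.74 and 2.74 CPM at 68 weeks, against 2.74, 3.59, 4.86 and 2.96 CPM at 12 weeks. Both were highest in 12-week replicates 2 and 3, and the other libraries shared a narrow range. The sum of 8 neutrophil markers was highest in the same libraries, at 17.5 and 36.0 CPM, against 3.14 to 6.03 CPM at 68 weeks and 4.86 and 8.81 CPM in the remaining 12-week libraries, replicates 1 and 4. Enough counts for a test were found for 5 of these 8 genes, of which 0 were called by edgeR. Among all genes tested, 1.61% were called higher and 1.22% lower. The 5 log2 fold changes ran from -2.34 ± 0.66 (S100a8) to -1.26 ± 0.45 (Csf3r), with a median of -2.04. The part of these markers in the integrin values was not tested.

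**Figure D5:**
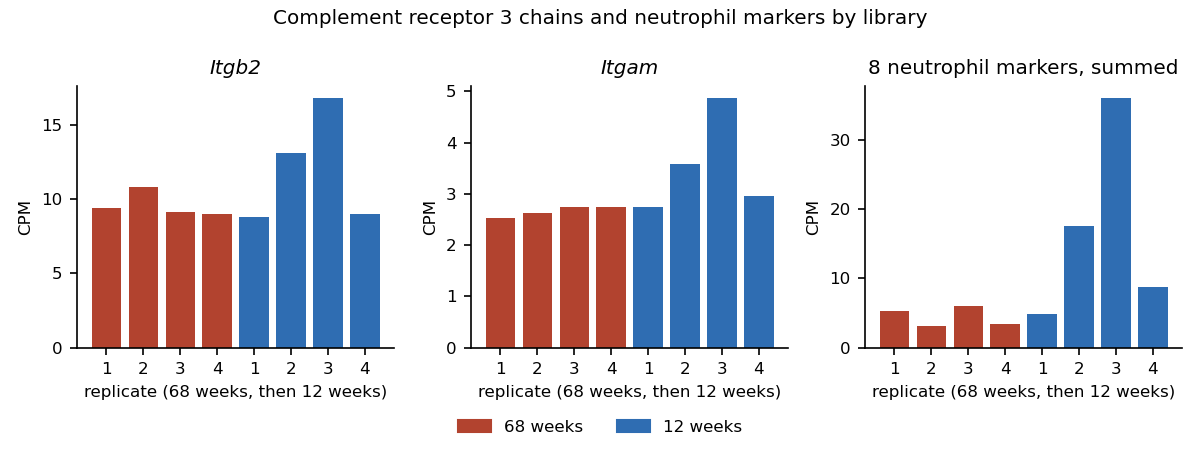
CPM of Itgb2, Itgam and the sum of 8 neutrophil markers in each library, with 68-week replicates 1 to 4 in red and 12-week replicates 1 to 4 in blue. All 3 panels are highest in 12-week replicate 3 (16.8, 4.86 and 36.0 CPM), followed by 12-week replicate 2.

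The log2 fold changes were -0.31 ± 0.19 for Itgb2 and -0.41 ± 0.18 for Itgam (adjusted p = 0.424 and 0.258, edgeR). Without 12-week replicate 3, Itgam had -0.22 and Itgb2 -0.10. Itgam shares 68.7% of its exon bases with the second identifier of that symbol, which had 43 counts over all libraries against 714 for Itgam, so its level is uncertain. Itgax ranged from 0.863 to 2.22 CPM at 68 weeks and from 1.03 to 1.47 CPM at 12 weeks (0.17 ± 0.29), and without 68-week replicate 1, its highest library, the value was -0.11.

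A further 34 complement genes were listed, and 20 of them had too few counts to be tested, including the recognition lectins Mbl1 and Mbl2 with no count in any library. Of the 14 tested, 1 fell and 0 rose by edgeR, which is 7.14% lower, beside 1.22% of all genes, and 0% higher, beside 1.61%. The gene that fell was Cfd, which encodes the adipocyte-derived protease adipsin that cleaves factor B, at 13.0, 20.7, 20.6 and 10.3 CPM at 68 weeks, against 79.3, 46.2, 57.8 and 27.9 CPM at 12 weeks (-1.71 ± 0.32, adjusted p = 0.0287, edgeR). It is known as a product of adipocytes, whose marker sum is given above, and that part in its value was not tested. With airway markers in the model it had -1.21 ± 0.33 (adjusted p = 0.173, edgeR). It was -0.93 ± 0.34 and -1.57 ± 0.29 within the libraries of least and of most airway transcripts. Leaving out a library ended its call in 6 of 8 cases, without 68-week replicate 1, 2 or 4 (-1.62, -1.85 and -1.54) or 12-week replicate 1, 2 or 3 (-1.44, -1.77 and -1.67).

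The other tested genes of this list were not called. The smallest p-values after that of Cfd were those of the B cell and follicular dendritic cell receptor gene Cr2 (-1.14 ± 0.42), of Cpn2, a carboxypeptidase N subunit (-0.49 ± 0.21), of the ficolin gene Fcna (0.42 ± 0.19), of Cd93 (-0.21 ± 0.10) and of Cd59b (0.19 ± 0.14). Their adjusted p-values ran from 0.181 to 0.511 (edgeR).

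The H3K27me3 lists were read for the complement genes that they link to regions. Each list was compiled by the authors from the CUT&RUN libraries of 1 age, names its regions as unique to that age, and gives a score with no stated scale and no value per library. The 68-week list of 3433 regions linked 2 of the 29 genes, or 6.9%, where all linked symbols made up 2.56% of the symbols in the count table. The 12-week list of 1164 regions linked 1, or 3.45%, beside 1.09%. At 68 weeks these were C3, with a region of 220 bases on chromosome 17 (57516188 to 57516407, authors' score 5.05), and Itgax, with one of 284 bases on chromosome 7 (127749636 to 127749919, score 3.46). At 12 weeks it was Vtn, with a region of 265 bases on chromosome 11 (78391766 to 78392030, score 3.36).

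The Itgax and Vtn scores were near the bottom of their lists, above 2.16% and 1.63% of the regions, and that of C3 was above 58.7%. Positions are those of the deposited lists, whose build could not be settled. In the count tables C3 spans 57203970 to 57228136 and Vtn 78499091 to 78502324, outside the regions linked to them. The further complement gene Cpn1 spans 43956307 to 43986556 on chromosome 19. It overlaps the 68-week region linked to it (43955944 to 43956375, score 4.24). C1s1 and C4b were linked to no region at either age. Of the 34 further complement genes, 2 were linked at 68 weeks, C1rb and Cpn1, and 0 at 12 weeks. C1rb, next to C1s1 on chromosome 6 and at 0 or 1 count per library, was linked to a 68-week region (124548979 to 124549205, score 6.95). In RNA, the members linked at 68 weeks had log2 fold changes of 0.17 (C3) and 0.17 (Itgax). The member linked at 12 weeks had -0.34 (Vtn), and none of these was called.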

How the data were processed

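Total heart RNA was sequenced in 4 libraries per age. Per the file headers, the authors deposited raw whole-number counts for each gene. Trimmomatic 0.36, STAR 2.5.2b, featureCounts of Subread 1.5.2, DESeq2, Bowtie2 2.4.2 and MACS3 3.0.0b1 appear, without roles, in the submitters' processing notes. Strand and multiple-match settings are not given in the sources used here. In the deposited region lists the authors give each region a score, under the name enrichment. The other deposited columns used, gene length and region width, are in bases. The deposited per-library counts equalled the series table in 8 of 8 libraries.

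All genes passing filterByExpr entered edgeR 4.0.16 (R 4.3.3; quasi-likelihood, TMM, age alone, Benjamini-Hochberg adjustment over 15947 genes, threshold 0.05), and the complement genes were read from that fit. Each SE is the absolute log2 fold change over √F, and 95% intervals use the same error. The fits were tested on simulated counts. Alternatives were RLE factors, library size, DESeq2 1.42.0, no filter, a replicate block, leaving out each library, and airway markers in the model or as a split. RPKM used the deposited lengths. The labels do not say that libraries came from separate mice, so p-values measure the spread between libraries, of which those of 1 age differed beyond sampling noise (a chi-square of 17.4 or more for each degree of freedom). All 29 complement genes are named. Values in every library are given for called genes, the 6 smallest p-values and chosen components, and for the other complement genes those called and the 6 smallest p-values are named. Members and lists were chosen with earlier results of these data known. Promoter sequences are RefSeq's (GRCm38.p6), matched by symbol for 19 of the 29 genes. The values of 1 further complement gene are not reported here.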

Additional observations from a re-analysis of the deposited data

Results flagged for a closer look

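C1qb in 68-week replicate 4, at 42.5 CPM, lay far above the other 3 libraries of that age, which held 35.4 to 35.9 CPM. It was the 1 library so marked in 58 groups of 4 examined (29 genes at 2 ages), and chance marks about 1 in 20. C1qa and C1qc were also highest of their age in that library, at 42.1 and 34.8 CPM. Without it, the log2 fold change of C1qb was -0.068.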

How the results depend on the processing

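The 256 higher and 195 lower genes became 568 and 439 with DESeq2, 112 and 48 with the replicate block, 74 and 22 with airway markers in the model, 10 and 23 in the 4 libraries of least airway transcripts and 4 and 1 in the 4 of most, and 117 to 209 and 52 to 154 when a library was left out. Complement genes called higher numbered 2 with TMM or RLE factors and without a filter, 3 with DESeq2, 1 with the replicate block (C4b), and 0 with library size alone, with airway markers in the model and in both sets of the airway split. They numbered 0 to 1 with a library left out. Complement genes called lower numbered 0, or 1 with DESeq2. Of the further complement genes 1 fell, against 0 in the 3 airway settings and 0 to 1 with a library left out. Of the regions, 1 at 68 weeks and 0 at 12 weeks scored above their list's median. The replicate numbers did not pair the libraries (r = -0.243, -0.0411, 0.0406 and 0.33 for replicates 1 to 4), and with the replicate block C1s1 had 0.42 (adjusted p = 0.0589, edgeR). Library totals in place of TMM left the C1s1 and C4b means within 1 SD.

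Among the complement genes, signs turned for 10 that were not called. When the model held airway markers, the values were C1qa 0.019, Masp1 -0.13 and Clu -0.024. In the libraries of least airway transcripts it was C1qa 0.071, C1qb 0.097, C2 0.31, Masp1 -0.42, Serping1 -0.14, Clu -0.32 and Itgb2 0.11, and in those of most, C7 0.072, Cd55 0.0396 and Itgax -0.26. With library size alone Masp1 had -0.013 and Clu -0.044. C1qb had 0.0015 with RLE factors, 0.0072 with DESeq2 and 0.0057 with no filter. With a library left out, ranges were -0.066 to 0.0045 for C1qa, -0.068 to 0.025 for C1qb, -0.61 to 0.0196 for C2, -0.084 to 0.24 for Masp1, -0.18 to 0.086 for C7, -0.0699 to 0.11 for Clu and -0.11 to 0.36 for Itgax. The cause of these shifts was not tested. C6, Cfi, C4a and Cd46 were limited by depth, and Cd46 also by the exon overlap given above.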
